A study of Rattus norvegicus with 3 samples.

Results

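The genes described here are Grem1, whose product gremlin is secreted and blocks bone morphogenetic proteins (BMPs), with 9 other genes of the BMP pathway: the antagonist Nog, the ligand genes Bmp2, Bmp4, Bmp6 and Bmp7, and the target genes Id1, Id2, Id3 and Smad6. They were chosen by name, with earlier results of these arrays known, and Grem1 was already known to differ most. All 10 were measured, out of 14218 genes in all, by 18 probe sets that carry 1 of these symbols alone. The 3 arrays came from fetal Wistar rat cardiomyocytes, isolated by enzyme digestion, plated for 48 hours and given 1 of 3 media for the following 24 hours. One culture received medium conditioned by cardiac fibroblasts, the matrix-producing cells of the heart, another received medium conditioned by skeletal myoblasts, the precursor cells of skeletal muscle, and the control culture received fresh medium. The study concerned protection of cardiomyocytes from oxidative stress by factors that myoblasts release. Each condition had 1 array, so there is no spread between replicates, no standard error and no p-value, and every difference below describes these 3 arrays. Neither the exact fetal age nor the number of animals behind a culture is stated in the labels.

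BMPs are secreted ligands of the TGF-beta superfamily that bind pairs of type I and type II receptor kinases at the cell surface. The activated receptors phosphorylate Smad1, Smad5 and Smad9, which join Smad4 and switch on target genes, among them the Id genes, whose proteins block basic helix-loop-helix transcription factors, and Smad6, which feeds back to inhibit the pathway. Secreted antagonists such as gremlin, noggin and follistatin bind the ligands before they reach their receptors. In the heart, BMP signals take part in cardiac lineage commitment, in valve and endocardial cushion formation and in the maintenance of endothelial cells.

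A probe set's value is its log2 level on an array relative to its median over the 3 arrays, so its median array stands at 0 and a difference of 1 between arrays is 2-fold. A gene's value is the mean over its probe sets, so with several of them no array need be at 0. Absolute levels were removed by this centring, so whether a gene was bright or near background cannot be told, and levels of different genes cannot be compared. It also means that the presence of the cardiomyocyte markers could not be checked, only how they differed between arrays. The technical yardstick was 42 probe sets for control transcripts meant to be added equally to every sample. Their largest difference in size was 0.68 between fibroblast medium and control, 0.66 between myoblast medium and control, and 1.02 between fibroblast and myoblast medium. The differences of 6, 3 and 2 of the 10 genes were larger than these limits in the same 3 comparisons. The control transcripts were not centred on 0, with median differences of 0.09, 0.29 and -0.21 in the same order. Small differences between myoblast medium and the other arrays are thus of the size of that shift.

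In fibroblast medium, 6 of the 10 genes were at least 2-fold higher than in control and 0 were 2-fold lower. These were both antagonists, Grem1 and Nog, the ligand genes Bmp2 and Bmp4, and the target genes Id1 and Id3. The median log2 difference of the 10 genes was 1.16, against 0.00 over all genes, of which 4.26% were higher and 2.6% lower by 2-fold or more. In myoblast medium, 1 of the 10 genes, Id3, was at least 2-fold higher than in control and 0 were lower, with a median of 0.44, where 1.35% of all genes were 2-fold higher and 0.844% lower. Between fibroblast and myoblast medium, Grem1 and Bmp2 were the 2 genes at least 2-fold higher in fibroblast medium and 0 were lower, with a median of 0.63, where 3.94% of all genes were 2-fold higher and 2.12% lower. All genes include 2261 at exactly 0 between fibroblast medium and control, while all 10 genes have a probe set with values on 2 arrays. By such probe sets alone, 646 of 9836 genes were 2-fold higher and 417 lower in fibroblast medium than in control, with 7 and 0 of the 10. In myoblast medium 201 were higher and 137 lower, with 1 and 0 of the 10. Between fibroblast and myoblast medium 611 were higher and 336 lower, with 3 and 0 of the 10. Because the genes were picked with these differences in view, the counts are a description. The comparisons with fresh medium share 1 control array, so an unusual value on it moves both.

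**Figure D1:**
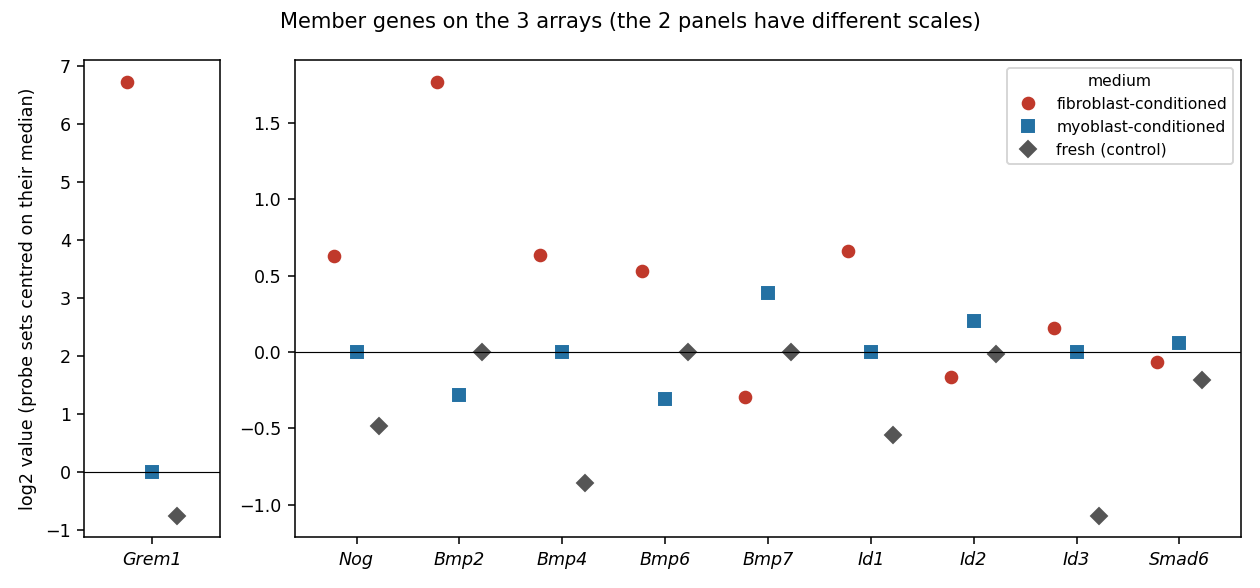
Log2 value of each of the 10 genes on the arrays of fibroblast-conditioned medium (circles), myoblast-conditioned medium (squares) and fresh medium (diamonds), each probe set being centred on its median over the 3 arrays. Each point is 1 array, and Grem1 has its own scale because its fibroblast medium value of 6.73 lies far above the others, the next being Bmp2 at 1.77.

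Among the antagonists, Grem1 stood at 6.73 in fibroblast medium, 0.00 in myoblast medium and -0.75 in fresh medium. The fibroblast medium array alone was high. The difference from control was 7.48 (179-fold), rank 1 of all 14218 genes, and that from myoblast medium was 6.73 (106-fold), also rank 1. Myoblast medium was higher than control by 0.75 (1.69-fold), rank 357 from the top, with 4.26% of genes at least as far from 0. Grem1 was measured by a single probe set, so no second probe set checks the value.

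Nog, which encodes noggin, was at 0.63 in fibroblast medium, 0.00 in myoblast medium and -0.49 in fresh medium. Its difference from control was 1.11 (2.16-fold) in fibroblast medium and 0.49 (1.40-fold) in myoblast medium. The 3 arrays of Nog were thus spaced in steps of similar size, whereas for Grem1 the step to fibroblast medium was the large one. Each step of Nog was within the control transcripts' limits. The step between conditioned media was 0.63 against 1.02, and that between myoblast medium and control 0.49 against 0.66.

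The promoters of both antagonists are shown because they were the only ones, of the 7 genes found in the promoter table (Grem1, Nog, Bmp4, Bmp6, Id1, Id2 and Id3), to hold GGCGCC, the GC-rich element through which Smad1 and Smad5 are known to bind DNA. The sequences are the 250 bases before the annotated gene start, from RefSeq, rat build GRCr8. That of Grem1 is chr3:120978320-120978569 on the minus strand, and that of Nog is chr10:74627502-74627751 on the minus strand. Capitals mark GGCGCC and, in Nog, CAGAC, the other strand of the Smad-binding sequence GTCTG.
Grem1: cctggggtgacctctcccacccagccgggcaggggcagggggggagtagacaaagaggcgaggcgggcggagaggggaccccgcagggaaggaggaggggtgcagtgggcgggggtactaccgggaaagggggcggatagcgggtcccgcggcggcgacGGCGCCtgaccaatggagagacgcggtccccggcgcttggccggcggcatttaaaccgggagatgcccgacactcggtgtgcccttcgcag
Nog: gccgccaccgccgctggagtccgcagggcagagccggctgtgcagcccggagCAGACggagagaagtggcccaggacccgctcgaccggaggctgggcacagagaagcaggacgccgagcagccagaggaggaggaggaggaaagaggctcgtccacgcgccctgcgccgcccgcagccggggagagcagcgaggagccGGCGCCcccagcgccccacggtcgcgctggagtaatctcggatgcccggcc
GGCGCC, which reads the same on both strands, starts 91 bases before the start of Grem1 and 51 bases before that of Nog. It was present in 8.69% of all 33469 promoters of this length, and GTCTG, on either strand, in 42.9%. GTCTG was found in Nog and Bmp4, and the palindrome GTCTAGAC, present in 0.173% of promoters, in 0 of the 7. No motif overlapped another. The GC content was 72.0% for Grem1 and 74.0% for Nog, against a median of 51.2% over all promoters. A match is a description of the letters and does not show a bound factor.

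Of the ligands, Bmp2 separated the fibroblast medium array from the others. Its value was 1.77 in fibroblast medium, -0.28 in myoblast medium and 0.00 in fresh medium. Fibroblast medium was 3.41-fold above control (1.77) and 4.14-fold above myoblast medium (2.05). Its probe sets gave 1.92 and 1.62 for fibroblast medium minus control, and -0.14 and -0.42 for myoblast medium minus control. Both thus placed myoblast medium slightly below control.

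Bmp4, the other ligand past 2-fold, had a different order. It was at 0.63 in fibroblast medium, 0.00 in myoblast medium and -0.86 in fresh medium, so that both conditioned media lay above control. The difference from control was 1.49 (2.81-fold) in fibroblast medium and 0.86 (1.81-fold) in myoblast medium, ranks 303 and 265 from the top. The conditioned media differed by 0.63, less than the control transcripts' limit of 1.02.

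Bmp6 was at 0.53 in fibroblast medium, -0.31 in myoblast medium and 0.00 in fresh medium as the mean of 4 probe sets that were not alike. For fibroblast medium minus control, 2 of them gave 0.82 and 1.31 and the other 2 gave 0.00, one of which had no value on any array. Restricted to the probe sets with 2 values each, the difference was 1.07, past 2-fold, against 0.53 with all. Bmp7, by 1 probe set, was at -0.29 in fibroblast medium, 0.39 in myoblast medium and 0.00 in fresh medium, and was the only ligand of the 4 with fibroblast medium lowest. Its difference between fibroblast and myoblast medium was -0.68, within the limit of 1.02.

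**Figure D2:**
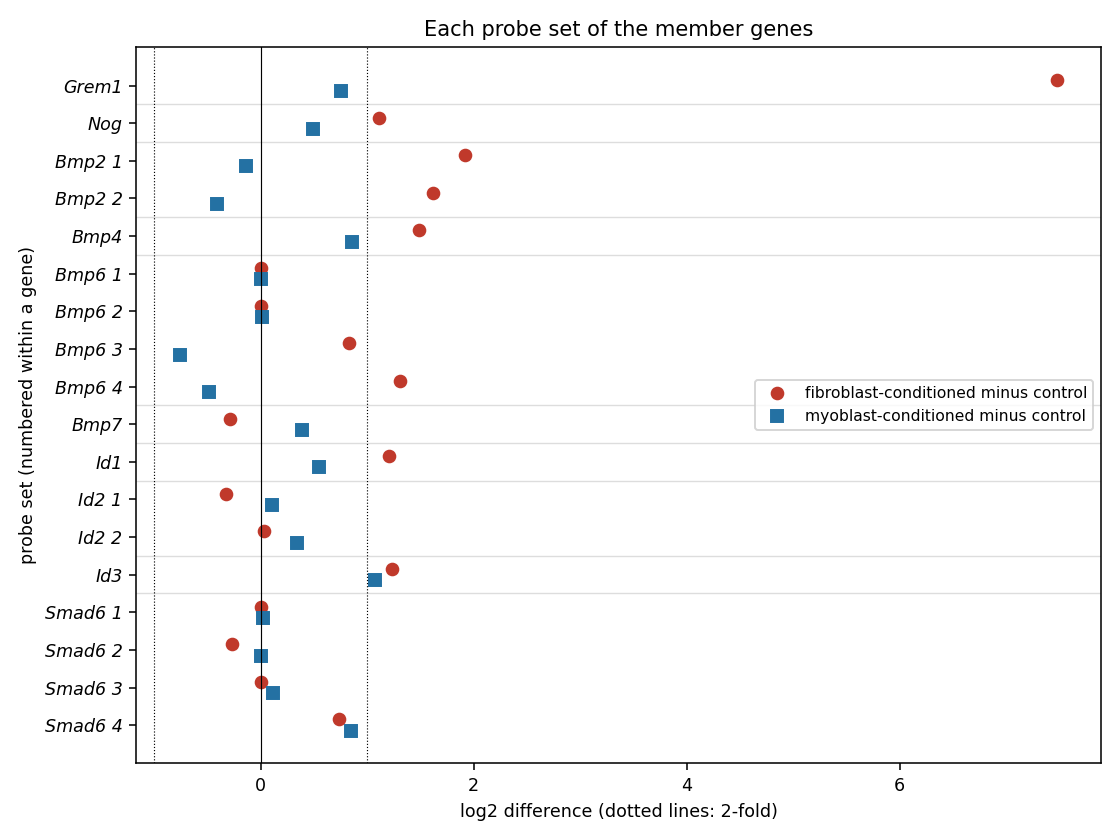
Log2 difference from fresh medium of each of the 18 probe sets of the 10 genes, in fibroblast-conditioned medium (circles) and myoblast-conditioned medium (squares). Probe sets are numbered within a gene. The Bmp2 probe sets lie close together at 1.92 and 1.62, while those of Bmp6 run between 0.00 and 1.31 and those of Smad6 between -0.27 and 0.74 in fibroblast medium.

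The target genes did not form 1 pattern. Id3 was at 0.16 in fibroblast medium, 0.00 in myoblast medium and -1.07 in fresh medium, so both conditioned media lay well above control and close to each other. The difference from control was 1.23 (2.35-fold) in fibroblast medium and 1.07 (2.10-fold) in myoblast medium, and 1.86% of all genes were as far from 0 in myoblast medium. Id1 was at 0.66 in fibroblast medium, 0.00 in myoblast medium and -0.54 in fresh medium. Its difference from control was 1.21 (2.31-fold) in fibroblast medium and 0.54 (1.46-fold) in myoblast medium, the myoblast medium value lying below the limit of 0.66.

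Id2 differed little between the arrays. It was at -0.16 in fibroblast medium, 0.20 in myoblast medium and -0.02 in fresh medium, and its 2 probe sets disagreed in sign for fibroblast medium minus control, at -0.33 and 0.03. Smad6, as the mean of 4 probe sets, was at -0.07 in fibroblast medium, 0.06 in myoblast medium and -0.18 in fresh medium. The mean was above control by 0.12 in fibroblast medium and 0.25 in myoblast medium. The only probe set of the 4 with values on 2 arrays gave 0.74 in fibroblast medium and 0.85 in myoblast medium, with fresh medium lowest, as in Id3. The other 3 lay between -0.27 and 0.00 in fibroblast medium and between 0.00 and 0.11 in myoblast medium.

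The promoters of Id1, Id2 and Id3 are shown because Id1 and Id3 were past 2-fold in fibroblast medium and Id2 was not. They are again the 250 bases before the annotated start in GRCr8, at chr3:161671314-161671563 on the plus strand for Id1, chr6:47470996-47471245 on the minus strand for Id2 and chr5:153656041-153656290 on the plus strand for Id3. Capitals mark TATAAA, a common core promoter element.
Id1: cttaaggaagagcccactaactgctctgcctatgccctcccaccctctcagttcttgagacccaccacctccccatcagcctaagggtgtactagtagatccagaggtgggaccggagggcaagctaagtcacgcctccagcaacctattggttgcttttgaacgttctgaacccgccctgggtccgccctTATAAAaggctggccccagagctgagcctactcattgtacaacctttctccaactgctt
Id2: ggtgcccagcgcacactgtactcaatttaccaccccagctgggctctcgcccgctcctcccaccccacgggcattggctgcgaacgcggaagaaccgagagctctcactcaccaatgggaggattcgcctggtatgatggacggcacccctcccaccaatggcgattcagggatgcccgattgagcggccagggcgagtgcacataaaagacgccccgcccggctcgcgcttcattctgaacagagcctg
Id3: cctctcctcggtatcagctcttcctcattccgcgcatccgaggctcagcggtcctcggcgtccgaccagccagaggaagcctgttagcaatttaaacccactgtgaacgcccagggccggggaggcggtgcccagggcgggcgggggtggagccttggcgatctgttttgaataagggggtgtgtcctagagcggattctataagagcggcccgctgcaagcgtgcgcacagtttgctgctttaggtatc
None of the 3 holds, on either strand of this window, any of the Smad-related motifs named above. The core element was found in Id1, from 59 to 54 bases before the start, and on either strand in 12.9% of all promoters. The absence of a motif covers these letters in these windows only.

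The wider pathway was followed with 67 other genes, of which 54 had a probe set and are counted as measured. Chrdl1, Sost, Vwc2 and Bmp8a are among the 54 but had no value on any array, so they entered counts and medians at 0. In fibroblast medium 9 of the 54 exceeded control by 2-fold or more and 5 were lower by as much, with a median of 0.04. In myoblast medium 2 were higher and 1 lower, with a median of -0.02. Between fibroblast and myoblast medium 5 were higher and 5 lower, with a median of 0.10. The medians over all genes were 0.00, and the shares of all genes past 2-fold are those given above.

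Among 15 other measured antagonists and modulators, 4 were at least 2-fold higher in fibroblast medium than in control and 0 were lower. Fst, which encodes follistatin, a protein that binds activins and BMPs, was at 3.36 in fibroblast medium, -0.32 in myoblast medium and 0.00 in fresh medium, 10.3-fold above control. Smoc1, a secreted calcium-binding matrix protein that restrains BMP signalling, was at 2.50 in fibroblast medium, -0.19 in myoblast medium and 0.00 in fresh medium. Bmper, a BMP-binding endothelial regulator, was at 1.94 in fibroblast medium, -0.10 in myoblast medium and 0.00 in fresh medium. In these 3 genes, as in Grem1 and Bmp2, the fibroblast medium array was high and the other arrays lay at most 0.75 apart.

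Fstl3, a follistatin-like inhibitor of activins, differed from these in that fresh medium was low. Its 2 probe sets gave 1.04 and 0.90 in fibroblast medium, 0.00 in myoblast medium and -1.41 and -1.59 in fresh medium, so that it was 5.56-fold above control in fibroblast medium and 2.83-fold in myoblast medium. Fstl1, a secreted follistatin-like glycoprotein, and Nbl1, a member of the DAN antagonist family to which gremlin also belongs, were higher in fibroblast than in myoblast medium by 1.19 and 1.23. Bambi, a pseudoreceptor that blocks signalling, was the lowest of the class in fibroblast medium minus control, at -0.47. It was at 0.58 in myoblast medium minus control, and fibroblast minus myoblast medium was -1.05. Chrdl1, Sost and Vwc2 had no value on any array.

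Other ligands and their processing enzymes differed in both directions. Of 6 measured ligands, Bmp3 was 1.09 higher in fibroblast medium than in control, while Gdf10, a relative of Bmp3, was at -1.96 and Bmp5 at -1.25. Both of the lower ligands were close to control in myoblast medium, at -0.21 and -0.12. The probe sets of Bmp5 differed in size, and the one with values on 2 arrays gave -2.10. Pcsk6, a proprotein convertase that cleaves precursors of TGF-beta superfamily ligands, was at 0.34 in fibroblast medium, 0.00 in myoblast medium and -1.95 in fresh medium. It was 4.89-fold higher than control in fibroblast medium and 3.86-fold higher in myoblast medium, rank 25 from the top of all genes in myoblast medium. Furin, the lowest of the 4 measured proteases in fibroblast medium minus control, was at 0.00 there and at -0.08 in myoblast medium minus control, where Bmp1 was lower at -0.31 and Pcsk5 at -0.18.

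**Figure D3:**
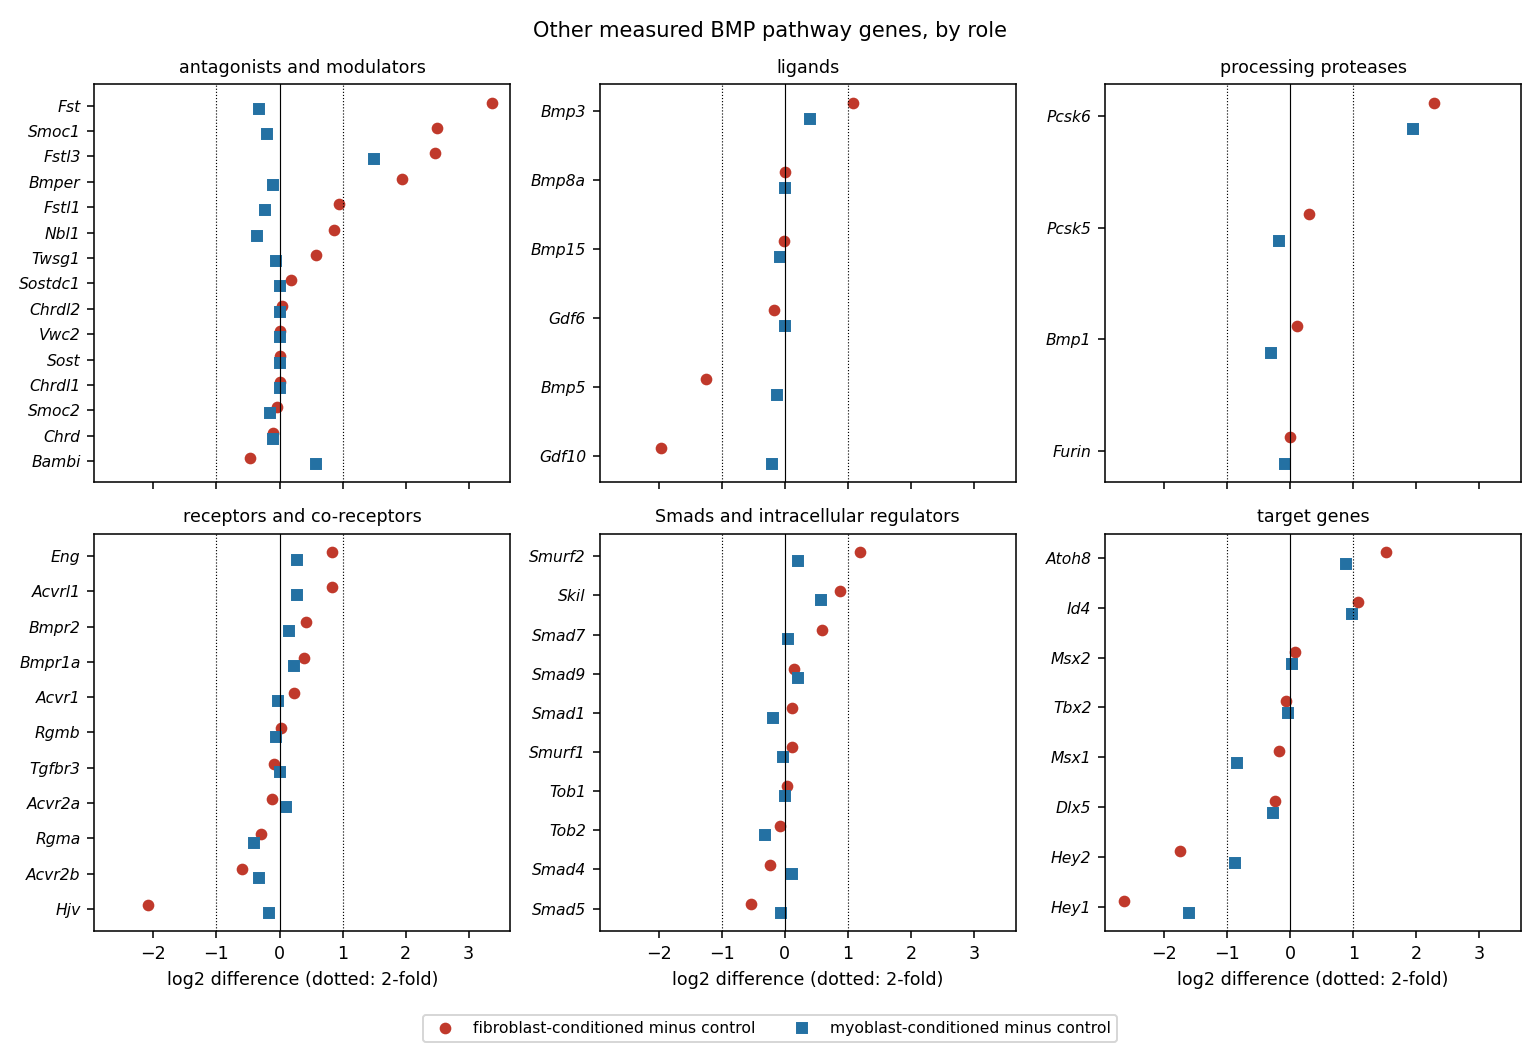
Log2 difference from fresh medium of the 54 other measured pathway genes in 6 role classes, in fibroblast-conditioned medium (circles) and myoblast-conditioned medium (squares), with dotted lines at 2-fold. Fst, Smoc1 and Bmper are to the right in fibroblast medium only, Fstl3 and Pcsk6 in both media, and Hey1 is to the left in both.

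Receptors, Smads and intracellular regulators made short lists, in which a single gene past 2-fold changes the share much. Of all genes, 4.26% were 2-fold higher and 2.6% lower than control in fibroblast medium. The shares in myoblast medium were 1.35% and 0.844%. Of 11 measured receptors and co-receptors, 0 were 2-fold higher in either conditioned medium, and the sole one 2-fold lower was Hjv, which encodes the co-receptor hemojuvelin of striated muscle and liver, at -2.08 in fibroblast medium and -0.16 in myoblast medium. The type I receptor Bmpr1a was at 0.39 and 0.23, and the type II receptor Bmpr2 at 0.42 and 0.15, in fibroblast and myoblast medium minus control. Acvrl1 and Eng, a type I receptor and a co-receptor best known from endothelium, were both at 0.83 and 0.28. Among 10 measured Smads and intracellular regulators, Smurf2, a ubiquitin ligase that acts on Smads and receptors, was 1.20 higher in fibroblast medium than in control, although its probe sets gave 2.03 and 0.37. Smad1 was at 0.12 and Smad5, the lowest of the class, at -0.54 in fibroblast medium minus control. The inhibitory Smad7 was at 0.59 there, as the mean of 3 probe sets that were not alike. They gave 1.48, past 2-fold, 0.27 and 0.00, the last without a value on any array.

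Of 8 other measured target genes, 2 exceeded control by 2-fold or more in fibroblast medium and 2 were lower by as much. Id4, the fourth Id gene, was at 0.11 in fibroblast medium, 0.01 in myoblast medium and -0.97 in fresh medium, 1.08 and 0.98 above control. Its 4 probe sets gave between 0.70 and 1.66 in fibroblast medium and between 0.67 and 1.32 in myoblast medium, so all had fresh medium lowest, as Id3 had. With the median of the probe sets in place of their mean, Id4 was 0.99 above control in fibroblast medium, short of 2-fold. Atoh8, a basic helix-loop-helix factor, was 1.53 and 0.88 above control. Hey1 and Hey2, transcriptional repressors that Notch also controls, lay the other way, at -2.64 and -1.75 in fibroblast medium and at -1.60 and -0.88 in myoblast medium.

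Genes near Grem1 were sought by Euclidean distance over the unscaled values of the 3 arrays, a measure that rests on 3 values per gene. As Grem1 stood out by its fibroblast medium value, the distance mainly picked genes high on that array, whatever the order of the others. Genes named with the prefixes AABR, LOC, MGC and RGD were set aside first, so any nearer ones would not appear here. The 10 nearest of the rest were Adgre1, Il1b, Ch25h, Lyz2, Ccn3, Ccl9, Il6, Fcgr2b, Scg2 and Ccl7, at distances between 1.71 and 2.76. Each lay high in fibroblast medium, with Adgre1 at 5.41 and Ccl7 at 4.11. The nearest, Adgre1, encodes a macrophage surface receptor and was at -0.80 in myoblast medium and 0.00 in fresh medium, so that myoblast medium was lowest. Fcgr2b, an Fc receptor gene, and Scg2, a secretogranin gene, had fresh medium lowest, as Grem1 had, at -1.13 and -0.16. No pathway gene was among the 10, nor could one be, since the highest of them after Grem1 in fibroblast medium was Fst, at 3.36.

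**Figure D4:**
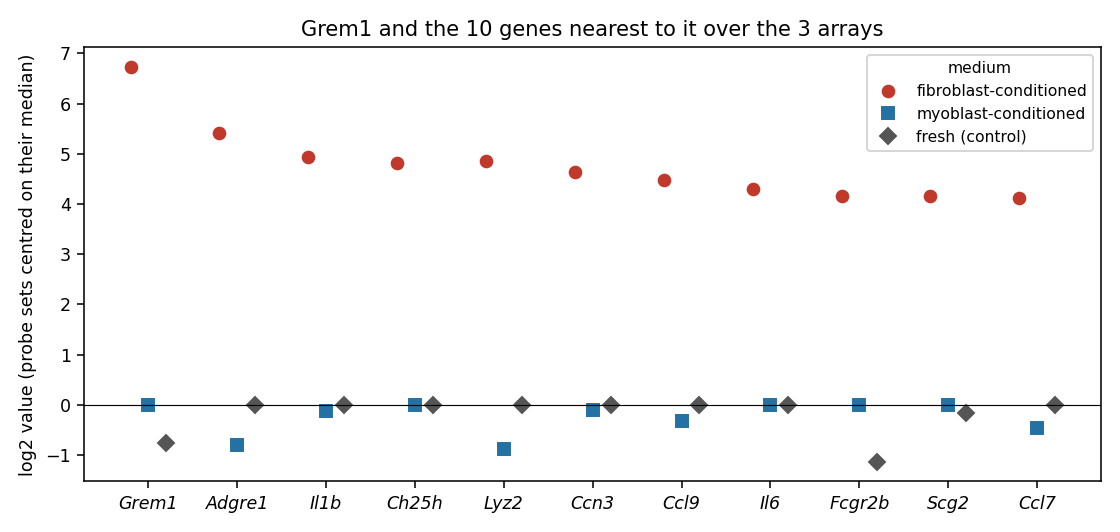
Log2 value, relative to the median array, of Grem1 and of the 10 genes nearest to it among those not set aside by name. Arrays are fibroblast-conditioned medium (circles), myoblast-conditioned medium (squares) and fresh medium (diamonds). Grem1 is highest in fibroblast medium at 6.73, and the nearest genes lie between 4.11 and 5.41 there.

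Markers of other cell types differed on the same arrays as these genes. Of 10 macrophage markers, 8 were at least 2-fold higher in fibroblast medium than in control (median 2.01, between 0.08 and 5.41), and in myoblast medium 1 was (median -0.54). Of 9 measured endothelial markers, fibroblast medium had 8 that were lower than in control by 2-fold or more (median -2.83) and myoblast medium 4 (median -0.91). The 10 fibroblast markers had a median of 0.09 in fibroblast medium and -0.10 in myoblast medium, with Thy1 at 1.69 and Pdgfra at -1.48 in fibroblast medium. Smooth muscle markers had medians of 0.52 and 0.24 with 3 of 10 at least 2-fold higher in each medium and 1 lower in myoblast medium, and skeletal myoblast markers -0.12 and -0.02 with 0 past 2-fold. Of 9 measured cardiomyocyte markers (medians -0.31 and -0.19), fibroblast medium had 3 lower by 2-fold or more, Myh6 at -2.11, Ryr2 at -1.23 and Tnni3 at -1.09, and myoblast medium had 1 higher, Myh7 at 1.43. Of 7 measured mesothelial markers (medians 0.91 and 0.17), 3 were higher and 1 lower by as much in fibroblast medium, and 2 were higher in myoblast medium. Their part in the differences of Grem1 and the pathway genes was not tested. In RNA from a whole culture, fewer cells of a type and less RNA per cell cannot be told apart.

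**Figure D5:**
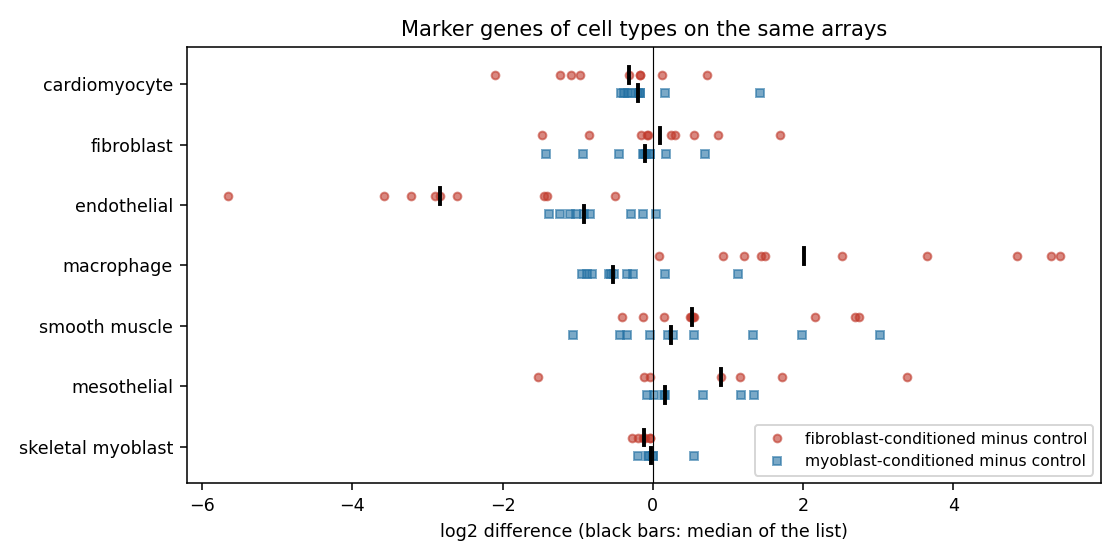
Log2 difference from fresh medium of marker genes of 7 cell types in fibroblast-conditioned medium (circles) and myoblast-conditioned medium (squares), 1 point per gene, with black bars at the median of each list. Macrophage markers have a median of 2.01 and endothelial markers one of -2.83 in fibroblast medium.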

How the data were processed

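Total RNA of each culture was labelled with the Affymetrix 3' IVT Express kit, per the labels' protocols, and measured on 1 array. The authors deposited log2 values made with RMA (background subtraction, equalised distributions, median polish), per the submitters' processing notes (version and settings not given in the sources used here). Log base 2 was inferred from RMA. The deposited table held 31099 probe sets: 17117 had values on 2 arrays, always of opposite sign, 8002 on 1, 5980 on none and 0 on 3. From these values, and not from any stated method, the table was taken as centred on each probe set's median over the 3 arrays with the median left blank, and blanks were read as 0. For rows with 1 value or none this assumes that arrays tied exactly, which bears on blanks of Bmp6 and Smad6.

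The platform annotation gave 1 symbol to 20832 probe sets and several to 436, and 9831 were unnamed here. Symbols were updated by Entrez ID with the RefSeq table of GRCr8 (20764 matched). Probe sets of a gene were averaged. Of the 18 probe sets of the 10 genes, 13 had values on 2 arrays, 4 on 1 and 1 on none. Genes at least 2-fold apart were counted, with no test possible. The number of arrays limits the precision. The counting code was run on simulated data with large known differences, little noise and no tied arrays. That run checks the code only, and does not bear on how reliable the counts given here are. Promoters came from the RefSeq promoter table (GRCr8).

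The genes, lists and settings were chosen with earlier results of these data known. Beyond the 10 genes, named genes are pathway genes past 2-fold in any comparison, the highest and lowest of each role class in fibroblast medium minus control, and the 10 genes nearest to Grem1; the receptors, Smads, markers and genes without values that are also named were added after their values were seen. Other settings tried were the median or most variable probe set, leaving out probe sets shared by several transcripts, only probe sets with 2 values, centring of the arrays, and thresholds of 1.5-fold and 3-fold. Python 3.11.15, NumPy 2.4.6, pandas 2.3.3 and Matplotlib 3.10.9 were used.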

Additional observations from a re-analysis of the deposited data

Results flagged for a closer look

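Of the 10 genes, 4 lay on opposite sides of fresh medium in the conditioned media, each as the difference of single arrays, and the contrast between them was not tested. Relative to control, Bmp2 was at 1.77 in fibroblast medium and -0.28 in myoblast medium, and Bmp6 at 0.53 in fibroblast medium and -0.31 in myoblast medium. Bmp7 was at -0.29 in fibroblast medium and 0.39 in myoblast medium, and Id2 at -0.15 in fibroblast medium and 0.22 in myoblast medium. Of these 8 differences only that of Bmp2 in fibroblast medium was larger than the control transcripts' largest difference.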

How the results depend on the processing

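No paired analysis was possible because each condition had 1 array. With the median or the most variable probe set, only probe sets with 2 values, or centred arrays, each of the 18 counts of genes past 2-fold (the 10 genes, the wider list and all genes, in 3 comparisons and both directions) was within 1.5 times its value. Leaving out probe sets shared by several transcripts removed Id1 and Id3, whose only probe sets are of this kind, so the count of the 10 genes higher in myoblast medium than in control was 0 in place of 1, and that in fibroblast medium 4 in place of 6. The fold threshold moved the counts most, by construction. In fibroblast medium against control, 2 of the 10 genes were 3-fold higher (Grem1 and Bmp2). Of the wider list, 15 were higher at 1.5-fold and 5 at 3-fold, and of all genes 1293 were higher and 991 lower at 1.5-fold, 262 and 141 at 3-fold. In myoblast medium against control, 3 of the 10 genes were higher at 1.5-fold and 0 at 3-fold. Of the wider list, 4 were higher and 3 lower at 1.5-fold, and 1 was higher at 3-fold, and of all genes 536 were higher and 407 lower at 1.5-fold, 54 and 21 at 3-fold. Between fibroblast and myoblast medium, 6 of the 10 genes were higher and 1 lower at 1.5-fold. Of the wider list, 11 were higher at 1.5-fold and 3 at 3-fold, with 2 lower at 3-fold, and of all genes 1186 were higher and 946 lower at 1.5-fold, 255 and 84 at 3-fold. Single genes were followed only for the 10 genes and for wider genes past 2-fold in any comparison. No difference past 2-fold turned round among them. With the median of the probe sets the wider list again had 9 genes higher in fibroblast medium than in control, but without Id4 (0.99) and with Fstl1 (1.04). Among the single genes followed, Bmp6, Smad6, Bmp5, Smurf2 and Id4 moved by more than the SD of the control transcripts. They did so 12 times with the most variable probe set, 7 times with only probe sets with 2 values and 1 time with the median. Wider genes short of 2-fold, such as Smad7, were not in this check. Signal over background is unknown after centring, so dim genes could not be set aside.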
